A study of Homo sapiens with 6 samples.

Results

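Genes of RNA methylation, demethylation and pseudouridylation were compared between REH cells given the vehicle DMSO and REH cells given 25 µM ML141. The members are all entries of the deposited gene count table whose symbol is of the form TRMT, METTL, PUS, NSUN or ALKBH followed by a number and, where present, a suffix letter. This gave 63 of the 26485 entries. REH is a human B-cell precursor acute lymphoblastic leukaemia line, and ML141 is a compound that inhibits CDC42, a small GTPase. Both groups were treated for 24 h, at 1 dose of ML141, and each holds 3 libraries from 3 independent experiments. The groups differ in the agent only, and every value below comes from this 1 cell line. The p-values for single genes set the group difference against the spread between these 3 and 3 libraries. That spread was estimated with help from all genes tested.

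Cells modify their RNA after transcription with dedicated enzymes. TRMT and several METTL proteins methylate tRNA, METTL3 and METTL14 write N6-methyladenosine (m6A) on mRNA, NSUN proteins methylate cytosine at carbon 5, and PUS proteins turn uridine into pseudouridine. The methyltransferases use S-adenosylmethionine as methyl donor, and some ALKBH dioxygenases remove or further oxidise methyl marks. In blood cells and leukaemias the m6A writers and the tRNA enzymes are best known for their part in mRNA stability and protein synthesis.

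The symbols reach further than RNA. By textbook role, 21 members act on tRNA or as cofactors of tRNA enzymes, 7 METTL members act on other RNA or in the mitochondrial ribosome, 5 are pseudouridine synthases or the related PUS7L, 6 are NSUN enzymes and 4 are ALKBH enzymes that act on RNA. Another 14 METTL members act on proteins or small molecules, 2 METTL members have an uncertain substrate, and 4 ALKBH members act on DNA or protein or have an uncertain substrate. These 20 share a family name with the RNA enzymes and are reported apart.

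The libraries hold 8284299 to 12308039 counts, and 1 count is worth 0.0754 to 0.130 CPM, the usual unit of counts scaled to library size, here with TMM factors. Of 14 precursor B cell markers 13 had a mean above 1 CPM, with VPREB1 at or near 0. The summed level of the 14 was 7677 to 8412 CPM with DMSO and 9611 to 9924 CPM with ML141. None of the 6 T cell markers in the table passed 1 CPM, and of 9 myeloid and erythroid markers 2 did, with a sum of 43.8 to 45.3 CPM with DMSO and 29.3 to 31.0 CPM with ML141. The part of these shifts in the results below was not tested. RNA of bulk cultures was measured, so fewer cells that express a gene and less of its RNA per cell cannot be told apart.

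Of the 63 members, 58 had enough counts to be tested. METTL15 and METTL20 passed the count filter only through the ML141 libraries. METTL7B, METTL11B, METTL21C and METTL24 had 0 counts in all 6 libraries, where 3 counts would be 0.226 to 0.389 CPM. NSUN7 had 0 counts in the 3 DMSO libraries and 2, 2 and 3 counts in the 3 ML141 libraries, too few for a fold change.

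In edgeR's quasi-likelihood test with an adjusted p threshold of 0.05, 10 of the 58 were higher with ML141 and 11 were lower. Of all 11454 genes tested, 54.4% changed, 26.7% being higher and 27.7% lower, so the 36.2% of tested members that changed lies below the share of all genes. The median log2 fold change of the tested members was -0.03, against 0.02 over all genes tested, with a range of -1.26 to 2.16. METTL15 and METTL20 were higher by more than 2-fold and PUS7 lower by more than 2-fold. Over all genes these shares were 6.76% and 6.24%, and nothing is read from METTL15 and METTL20 here, since both were tested only because their counts in the ML141 group passed the filter. CPM of the groups did not overlap in 27 of the 58, against 61.2% of all genes tested. Those 27 were 19 of the 21 that passed the test, METTL9 and ALKBH8 being the exceptions, and 8 of the 37 that did not. Summed over all members, the level was 2484 to 2544 CPM with DMSO and 2218 to 2428 CPM with ML141.

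**Figure D1:**
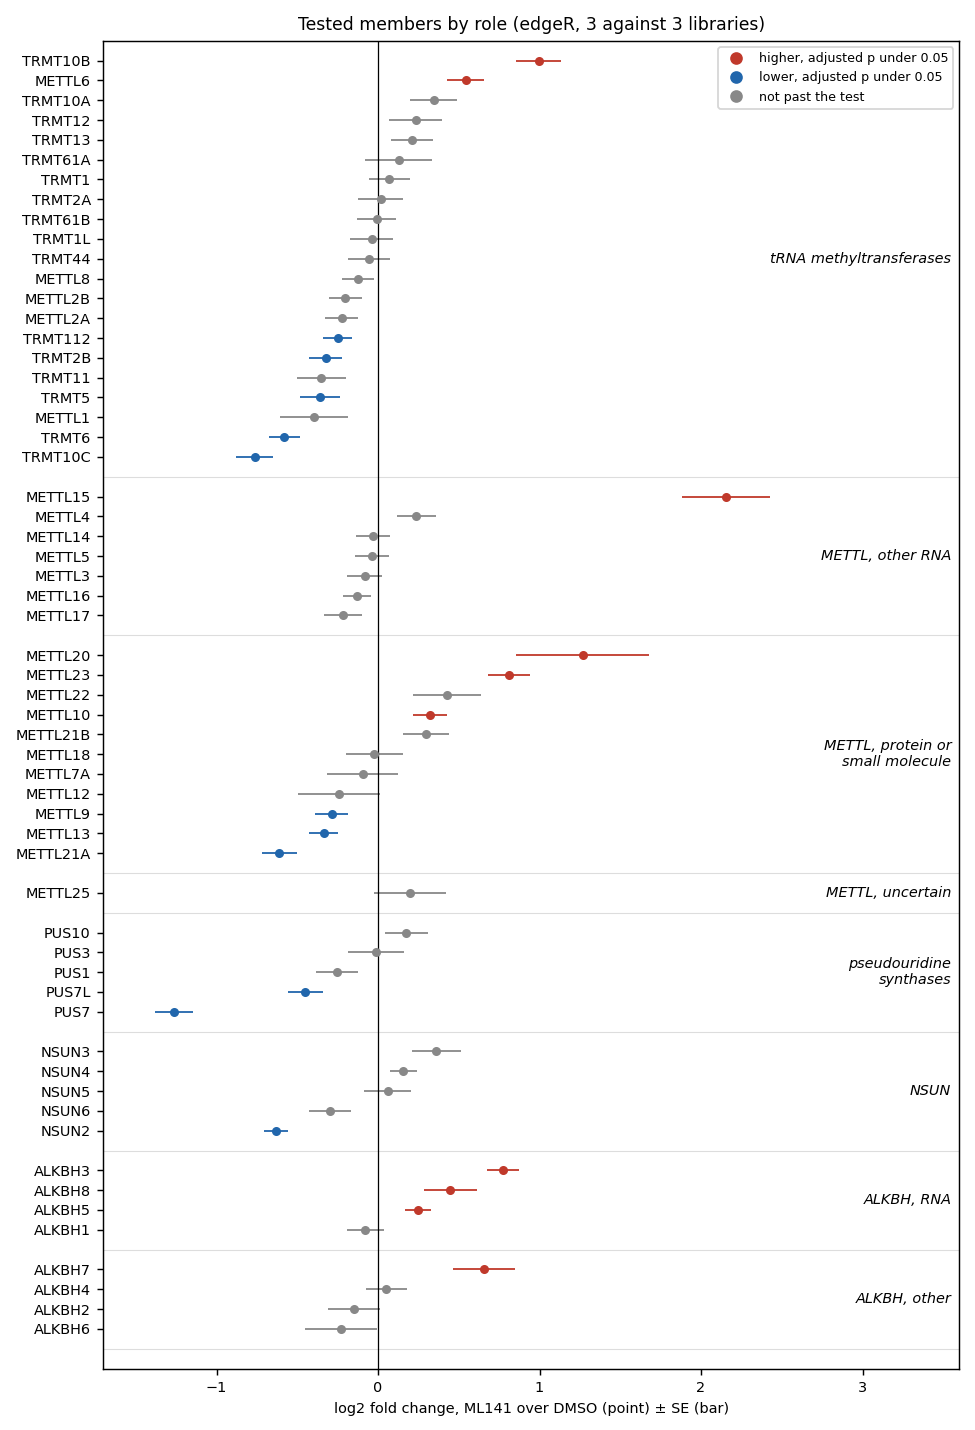
Log2 fold change of each tested member (point, ML141 over DMSO) with its SE (bar), grouped by role; red is higher and blue lower at an adjusted p under 0.05, grey did not pass. METTL15 lies farthest to the right at 2.16 and PUS7 farthest to the left at -1.26, and all grey points sit within 0.426 of 0.

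The direction counts depend on the scaling. With upper-quartile factors, which move the median of all genes by 0.10 on the log2 scale, 16 members were higher and 7 lower, and with library totals alone, which move it by 0.17, 19 were higher and 6 lower. Relative to the median of all genes the members' median stayed at -0.05 under each of the 3 scalings. Of the 21 calls, 10 held in every alternative that gave them a value, and these were PUS7, NSUN2, METTL15, ALKBH3, TRMT10B, TRMT10C, METTL23, TRMT6, METTL21A and METTL6. For METTL15 these were 16 of 17 alternatives, since it did not pass the stricter count filter, and for the other 9 all 17. That METTL15 kept its call is not read as support, since only its ML141 counts let it be tested. Without DMSO replicate 2, 5 members were higher, and without replicate 3 of both groups 6 were higher and 5 lower.

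**Figure D2:**
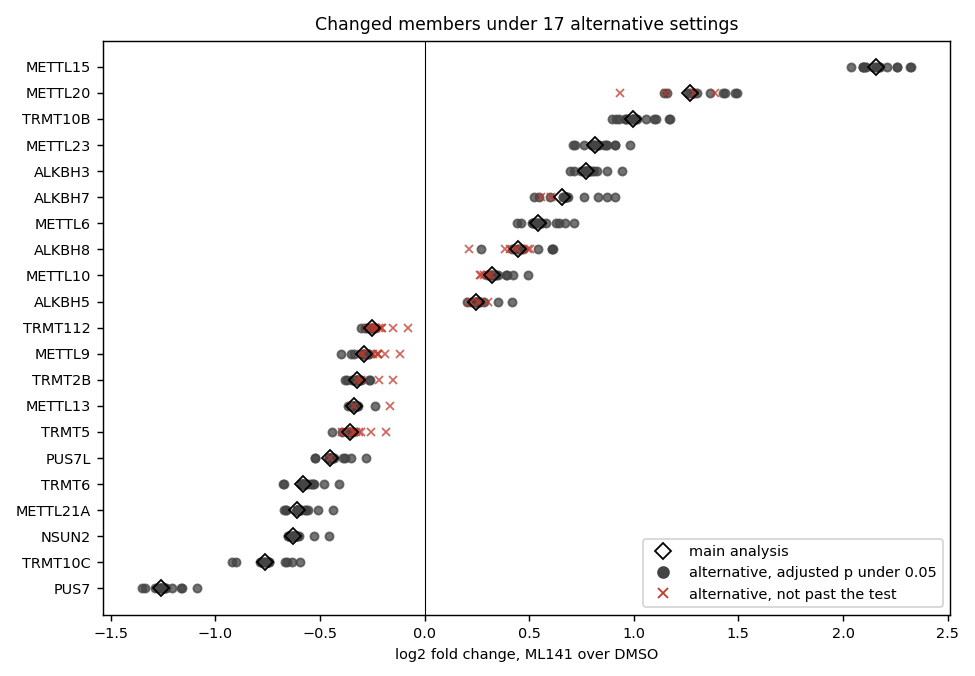
Log2 fold change of the 21 members that passed the test, in the analysis reported (diamonds) and in each alternative that gave a value (17, or 16 for METTL15 and METTL20; dots where the call held, red crosses where it was lost). The 10 members named above carry no cross, and no point of any member lies across 0 from its diamond.

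The tRNA enzymes moved in both directions. Of 21 members with a role on tRNA, 2 rose (TRMT10B and METTL6) and 5 fell (TRMT10C, TRMT6, TRMT2B, TRMT5 and TRMT112). The 33.3% that changed lies below the 54.4% of all genes tested. The median log2 fold change was -0.06. The balance turns with the scaling, to 4 higher and 2 lower with upper-quartile factors and to 5 higher and 2 lower with library totals. The 14 others did not pass the test.

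TRMT10C, at chr3:101561862-101566446 (hg38), is the methyltransferase subunit of human mitochondrial RNase P and methylates position 9 of mitochondrial tRNAs. Its level was 93.9, 98.9 and 96.1 CPM in DMSO replicates 1 to 3 and 67.0, 48.2 and 55.2 CPM in ML141 replicates 1 to 3. The groups do not overlap, and the ML141 libraries spread more (56.8 ± 9.49 CPM, SD, n = 3) than the DMSO libraries (96.3 ± 2.51 CPM, SD, n = 3). TRMT10C fell by 0.76 on the log2 scale (SE 0.115, 1.70-fold lower, adjusted p = 0.000159). HSD17B10, its dehydrogenase partner in the same complex, stood at 61.6, 71.8 and 72.2 CPM with DMSO and at 39.7, 44.7 and 50.9 CPM with ML141, and fell by 0.60 (SE 0.113, adjusted p = 0.000791). The nuclease subunit PRORP, listed under its older symbol KIAA0391, had a log2 fold change of -0.17 (adjusted p = 0.112) and did not pass.

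TRMT10B, at chr9:37753803-37778972, methylates position 9 of a cytosolic tRNA and is a relative of TRMT10C. Its level was 11.3, 13.6 and 10.6 CPM with DMSO and 24.7, 21.6 and 24.5 CPM with ML141. Every ML141 library lies above every DMSO library, and the log2 fold change was 1.00 (SE 0.139, 1.99-fold higher, adjusted p = 9.05e-05). The third relative, TRMT10A, which methylates guanosine at the same position of cytosolic tRNAs, had a log2 fold change of 0.34 (adjusted p = 0.0621) with overlapping groups. TRMT10A passed, as higher, in 6 of 17 alternatives, among them library totals (0.00885), the replicate block (0.0355) and the fit without ML141 replicate 2 (0.00487).

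TRMT6 and TRMT61A are the non-catalytic and catalytic subunits of the enzyme that makes 1-methyladenosine at position 58 of tRNA, a mark of the initiator tRNA among others. TRMT6, at chr20:5937235-5950558, was at 83.0, 83.9 and 83.9 CPM with DMSO and at 62.5, 53.1 and 52.1 CPM with ML141. It fell by 0.58 (SE 0.0958, 1.497-fold lower, adjusted p = 0.000318), with no overlap between the groups. TRMT61A was at 6.87, 11.3 and 12.1 CPM with DMSO and at 10.6, 13.2 and 9.63 CPM with ML141, which overlap, with a log2 fold change of 0.13 (SE 0.210, adjusted p = 0.631).

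METTL1 is the catalytic subunit and WDR4 the partner of the enzyme that makes 7-methylguanosine in tRNA. METTL1 was at 8.17, 10.3 and 10.99 CPM with DMSO and at 5.37, 9.28 and 7.65 CPM with ML141. The groups overlap, and the log2 fold change of -0.40 (SE 0.210) did not pass (adjusted p = 0.127). The call is gained with the replicate number as a block (adjusted p = 0.0475) and without ML141 replicate 2 (adjusted p = 0.0370). METTL1 shares 19.0% of its exon bases with METTL21B on the other strand, and the libraries do not record strand. WDR4 was at 29.4, 33.2 and 34.2 CPM with DMSO and at 13.3, 14.8 and 12.5 CPM with ML141, and fell by 1.25 (SE 0.124, adjusted p = 6.81e-06).

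METTL6, METTL2A, METTL2B and METTL8 make 3-methylcytidine in different tRNAs, METTL8 in mitochondria. METTL6, which acts on serine tRNAs, was at 31.1, 33.8 and 31.2 CPM with DMSO and at 51.8, 41.0 and 47.5 CPM with ML141. It rose by 0.54 (SE 0.113, 1.46-fold higher, adjusted p = 0.00159). METTL2A, METTL2B and METTL8 had log2 fold changes of -0.23, -0.20 and -0.12 (adjusted p = 0.0779, 0.120 and 0.320), and in each of the 3 the groups do not overlap.

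METTL2A and METTL2B are near copies on different chromosomes, and their first coding bases are shown as an example of how few bases tell the genes apart. Their coding sequences have 1134 bases each and differ at 15 of them, an identity of 98.7%. The 120 bases from the start codon, from the GENCODE release 29 transcripts on the plus strand, differ at 2 bases, in capitals, and span an intron in the genome (chr17:62423903-62424228 for METTL2A and chr7:128476766-128477091 for METTL2B, hg38).
METTL2A: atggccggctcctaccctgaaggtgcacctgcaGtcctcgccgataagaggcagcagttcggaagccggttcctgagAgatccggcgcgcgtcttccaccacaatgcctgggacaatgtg
METTL2B: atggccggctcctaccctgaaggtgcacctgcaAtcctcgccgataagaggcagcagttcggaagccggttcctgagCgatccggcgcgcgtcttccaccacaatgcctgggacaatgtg
Of the 50-base windows of the METTL2A transcript, 29.4% occur in another gene, mostly in METTL2B, and for METTL2B the share is 21.3%. The values of both genes are therefore uncertain.

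TRMT2B, TRMT5 and TRMT112 fell by less, and their calls rest on the scaling. TRMT2B, a 5-methyluridine enzyme of mitochondria, was at 47.5, 46.9 and 49.4 CPM with DMSO and at 34.6, 40.7 and 39.5 CPM with ML141 (log2 fold change -0.32, SE 0.101, adjusted p = 0.0173). TRMT5, which methylates guanosine 37 beside the anticodon, had a log2 fold change of -0.36 (SE 0.126, adjusted p = 0.0295). TRMT112 is the small cofactor that stabilises several methyltransferases, among them TRMT11, ALKBH8 and METTL5. It was at 60.8, 63.8 and 66.9 CPM with DMSO and at 55.2, 50.7 and 55.4 CPM with ML141 (log2 fold change -0.25, SE 0.0918, adjusted p = 0.0360), and 18.8% of its exon bases are shared with ESRRA. With library totals the adjusted p was 0.243 for TRMT2B, 0.202 for TRMT5 and 0.472 for TRMT112. Without DMSO replicate 3 it was 0.0629, 0.0602 and 0.129, and TRMT5 and TRMT112 also lost the call without DMSO replicate 2 (0.0592 and 0.0992), ML141 replicate 2 (0.0713 and 0.0786) or ML141 replicate 3 (0.0994 and 0.0689). Without DMSO replicate 1 TRMT5 had an adjusted p of 0.0904.

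The remaining tRNA members did not pass. TRMT11, the TRMT112-dependent guanosine methyltransferase, had a log2 fold change of -0.35 (adjusted p = 0.0655), and passed with the replicate block (0.0386) and without ML141 replicate 1 (0.0214). TRMT13, which methylates ribose in tRNA, stood at 0.21, and TRMT12, a wybutosine enzyme, at 0.23. TRMT1, TRMT1L, TRMT2A, TRMT44 and TRMT61B lay between -0.06 and 0.07.

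The m6A writers showed no change that passed the test. METTL3, the catalytic subunit (chr14:21498133-21511375), was at 53.8, 65.2 and 65.5 CPM with DMSO and at 54.4, 63.2 and 56.7 CPM with ML141. Its log2 fold change was -0.08 (SE 0.107, adjusted p = 0.534). METTL14, which binds the RNA in the same heterodimer (chr4:118685368-118715433), was at 70.9, 61.5 and 58.6 CPM with DMSO and at 67.9, 57.2 and 62.0 CPM with ML141, a log2 fold change of -0.03 (SE 0.105, adjusted p = 0.838). In both genes the groups overlap. METTL3 shares 17.1% of its exon bases with TOX4. METTL16, which methylates U6 small nuclear RNA and hairpins of the MAT2A mRNA, was at 171, 174 and 161 CPM with DMSO and at 169, 149 and 144 CPM with ML141. Its log2 fold change of -0.13 (SE 0.0851) had an adjusted p of 0.213, and of 0.0325 without ML141 replicate 1.

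METTL15 was the member with the largest fold change, at a low level. It methylates cytidine of the mitochondrial 12S ribosomal RNA and lies at chr11:28108248-28527041. Its level was 0.908, 0.829 and 0.964 CPM with DMSO, from 7, 8 and 10 counts, and 4.35, 4.37 and 3.44 CPM with ML141, from 47, 58 and 40 counts. The groups are far apart, and the log2 fold change was 2.16 (SE 0.272, adjusted p = 4.3e-05). The ratio of the summed and scaled counts was 4.51, with an exact 95% interval of 2.93 to 7.20 that covers counting error only. A pseudogene, METTL15P1, shares 13.5% of the 50-base windows of its transcript and has no entry in the table, so its reads could be counted here. METTL15 passed the filter only through the group in which it is high, so its adjusted p and interval are not read as support.

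The other METTL members on RNA did not pass. METTL4, which methylates U2 small nuclear RNA, had a log2 fold change of 0.24 (adjusted p = 0.113, and 0.0199 without ML141 replicate 2). METTL5, which makes m6A in 18S ribosomal RNA, stood at -0.04 (adjusted p = 0.770). METTL17, an assembly factor of the mitochondrial small ribosomal subunit, stood at -0.22 (adjusted p = 0.136, and 0.0374 with the replicate block).

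Of the 4 ALKBH members that act on RNA, 3 rose and none fell. Over all genes tested 26.7% rose and 27.7% fell, and with 4 genes nothing is read from the difference. The median log2 fold change was 0.35, the counts were the same under the 3 other scalings, and of the 3 calls those of ALKBH5 and ALKBH8 were lost in some alternatives, as given below. ALKBH3, which removes 1-methyladenosine and 3-methylcytosine from RNA and DNA (chr11:43880811-43920266), was at 29.8, 31.3 and 31.3 CPM with DMSO and at 56.4, 49.999 and 51.6 CPM with ML141. The libraries within a group lie close together, at 30.8 ± 0.864 CPM and 52.7 ± 3.34 CPM (SD, n = 3), and ALKBH3 rose by 0.77 (SE 0.0992, 1.71-fold higher, adjusted p = 4.93e-05). ALKBH5, the m6A demethylase, was at 118, 125 and 126 CPM with DMSO and at 145, 155 and 139 CPM with ML141. The groups do not overlap, but the step is small, with a log2 fold change of 0.25 (SE 0.0802, 1.19-fold higher, adjusted p = 0.0209). The ALKBH5 call was lost without DMSO replicate 1, 2 or 3 (adjusted p = 0.0803, 0.0646 and 0.0521).

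ALKBH8, which modifies the wobble uridine of tRNA, was at 50.2, 46.0 and 42.5 CPM with DMSO and at 82.0, 48.4 and 58.7 CPM with ML141. The groups overlap, and ML141 replicate 1 stands well above the other two. The log2 fold change was 0.45 (SE 0.164, adjusted p = 0.0362), and 0.21 without ML141 replicate 1 (adjusted p = 0.114). The call was also lost without DMSO replicate 1, 2 or 3 (0.0536, 0.103 and 0.130), without ML141 replicate 3 (0.0607) and with limma-voom (0.0553). ALKBH1, a demethylase of mitochondrial and cytosolic tRNA, had a log2 fold change of -0.08 (SE 0.115, adjusted p = 0.588).

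Among the other 4 ALKBH members, ALKBH7, a mitochondrial dioxygenase, was higher. It was at 4.80, 5.70 and 7.71 CPM with DMSO and at 9.36, 10.4 and 9.28 CPM with ML141. The log2 fold change was 0.66 (SE 0.192, adjusted p = 0.0119), with an adjusted p of 0.0576 without DMSO replicate 2. ALKBH2, a DNA repair enzyme, ALKBH4, which acts on actin, and ALKBH6 had log2 fold changes of -0.15, 0.05 and -0.23 and did not pass. ALKBH6 and ALKBH4 share 51.0% and 27.7% of their exon bases with other genes, so their counts are uncertain.

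**Figure D3:**
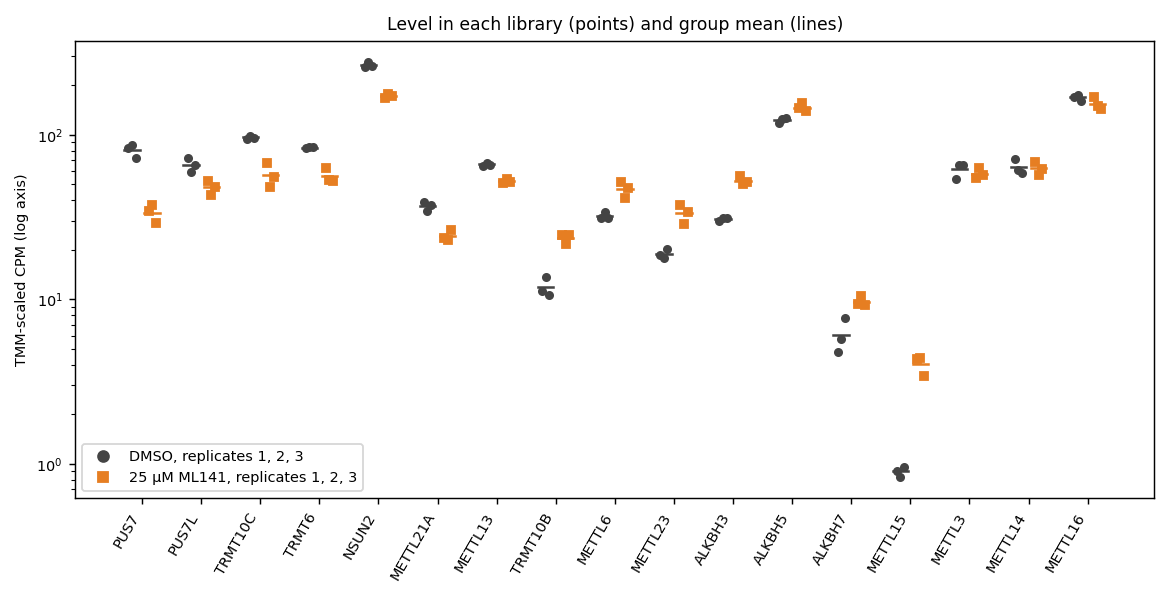
Level of 17 members in each library, in TMM-scaled CPM on a log axis, with DMSO replicates as grey circles, ML141 replicates as orange squares and the group means as lines. The groups of PUS7 (72.6 to 87.2 against 28.97 to 37.6 CPM) and METTL15 (0.829 to 0.964 against 3.44 to 4.37 CPM) are well apart, and those of METTL3 and METTL14 overlap.

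Of the 5 PUS members, 2 fell and none rose. Over all genes tested 26.7% rose and 27.7% fell, and with 5 genes nothing is read from the difference. The median log2 fold change was -0.26. With library totals 1 rose and 2 fell. PUS7, at chr7:105439661-105522267, makes pseudouridine in tRNA, mRNA and small RNAs without a guide RNA. Its level was 82.5, 87.2 and 72.6 CPM with DMSO and 34.3, 37.6 and 28.97 CPM with ML141. The lowest DMSO library is well above the highest ML141 library, and PUS7 fell by 1.26 (SE 0.118, 2.40-fold lower, adjusted p = 4.27e-06). It had the smallest p of all members.

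PUS7L, its paralogue, was at 71.7, 59.5 and 65.7 CPM with DMSO and at 52.5, 43.1 and 48.2 CPM with ML141. It fell by 0.45 (SE 0.108, adjusted p = 0.00394), and the call was lost without replicate 3 of both groups (adjusted p = 0.0581). PUS1, which acts on cytosolic and mitochondrial tRNA and on mRNA, was at 28.7, 33.2 and 37.5 CPM with DMSO and at 25.4, 31.5 and 26.4 CPM with ML141. The groups overlap, and its log2 fold change of -0.26 (SE 0.131) had an adjusted p of 0.118, which became 0.0392 without ML141 replicate 2. PUS10 and PUS3, both tRNA enzymes, had log2 fold changes of 0.18 and -0.01 (adjusted p = 0.286 and 0.954).

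Of the 5 NSUN members tested, 1 fell and none rose, and with upper-quartile factors or library totals 2 rose and 1 fell. The 20% that changed in the main analysis lies below the 54.4% of all genes tested. NSUN2, at chr5:6599239-6633291, methylates cytosines of many tRNAs and of mRNA. Its level was 259, 278 and 261 CPM with DMSO and 167, 178 and 171 CPM with ML141. The spread within each group is small beside the step between them, and NSUN2 fell by 0.63 (SE 0.0746, 1.55-fold lower, adjusted p = 2.61e-05). NSUN3 and NSUN4, which act in mitochondria on methionine tRNA and on the ribosome, had log2 fold changes of 0.36 and 0.16 (adjusted p = 0.0625 and 0.138). Without ML141 replicate 2 NSUN3 passed (0.0249). NSUN6, which acts on tRNA and mRNA, stood at -0.30 (adjusted p = 0.0735). The groups of these 3 genes do not overlap although none passed. NSUN5, an enzyme of 28S ribosomal RNA, stood at 0.06, and 43.0% of its 50-base windows occur in other genes, mostly its pseudogene NSUN5P2.

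Of the 11 tested METTL members that act on proteins or small molecules, 3 rose and 3 fell. The 54.55% that changed is near the 54.4% of all genes tested. METTL23, a protein arginine methyltransferase, was at 18.7, 17.7 and 20.3 CPM with DMSO and at 37.4, 28.7 and 33.9 CPM with ML141. It rose by 0.81 (SE 0.130, 1.76-fold higher, adjusted p = 0.000253). METTL21A, which methylates HSP70 chaperones, was at 39.2, 34.6 and 37.3 CPM with DMSO and at 23.6, 22.9 and 26.2 CPM with ML141. It fell by 0.61 (SE 0.110, 1.53-fold lower, adjusted p = 0.000591). In both genes the groups are separate. Of the 50-base windows of METTL21A, 28.1% occur in other genes, so part of its count is uncertain. METTL23 shares 15.7% of its exon bases with AC005837.2, a gene on the same strand that has no entry in the table. Part of the METTL23 count is therefore uncertain too.

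METTL13, which methylates the elongation factor eEF1A, was at 65.0, 67.6 and 65.4 CPM with DMSO and at 50.8, 54.1 and 51.7 CPM with ML141. The log2 fold change was -0.34 (SE 0.0875, adjusted p = 0.00621), with an adjusted p of 0.121 with library totals. METTL10, another eEF1A enzyme, stood at 0.32 (adjusted p = 0.0235), and shares 43.0% of its exon bases with another annotated gene. That call was lost without DMSO replicate 2 (0.0808) or 3 (0.0960) and without ML141 replicate 1 (0.0526) or 3 (0.0779). METTL9, a protein histidine methyltransferase, was lower by a log2 fold change of -0.29 (adjusted p = 0.0320) with overlapping groups. The METTL9 call was lost with library totals (0.295) and without DMSO replicate 1 (0.128) or 2 (0.0871) or ML141 replicate 2 (0.0857) or 3 (0.118).

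METTL20, which methylates the electron transfer flavoprotein of mitochondria, was near the detection limit, at 6, 3 and 8 counts with DMSO and 19, 14 and 20 counts with ML141. These are 0.778, 0.311 and 0.771 CPM against 1.76, 1.06 and 1.72 CPM. The log2 fold change was 1.27 (SE 0.413, adjusted p = 0.0211), and the ratio of summed and scaled counts was 2.42 (exact 95% interval 1.38 to 4.46, counting error only). The authors' deposited table gives METTL20 an adjusted p of 0.0827, and it is the 1 tested member of 58 whose call differs there. The call was also lost without DMSO replicate 2 (0.107) or ML141 replicate 3 (0.0743). METTL20 passed the count filter only through the ML141 libraries, so its adjusted p and interval are not read as support. It also shares 18.1% of its exon bases with AMN1 on the other strand. METTL22 and METTL21B had log2 fold changes of 0.43 and 0.30 (adjusted p = 0.105 and 0.0996), and METTL12, METTL7A and METTL18 lay between -0.24 and -0.02. METTL25, of uncertain substrate, stood at 0.20.

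Levels of different genes were compared as CPM per kilobase of merged exons in the DMSO libraries. NSUN2 was the most abundant member at 80.6 CPM per kb (78.5 to 84.3 over the 3 libraries), followed by METTL9 at 63.6, TRMT10C at 52.9, TRMT112 at 42.3 and ALKBH5 at 42.0. METTL3 stood at 30.5 CPM per kb and its partner METTL14 at 9.55. At the other end METTL15 and METTL20 stood at 0.158 and 0.0903 CPM per kb. Merged exons include long alternative ends, so these levels order the genes only roughly.

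Ratios between partner genes, or between the paralogues PUS7 and PUS7L, within a library do not depend on the scaling. They were taken for 8 pairs chosen after the values were seen, on the scale of log2 counts with a pseudocount of 0.5, and tested with an exact 2-sided permutation test, whose smallest possible p with 3 against 3 libraries is 0.1. TRMT6 over TRMT61A was 3.08 ± 0.434 with DMSO and 2.33 ± 0.291 with ML141 (SD, n = 3), a difference of -0.75 (exact p = 0.1, 0.16 adjusted over the 8 pairs). WDR4 over METTL1 differed by -0.83, PUS7 over PUS7L by -0.81, TRMT10C over KIAA0391 by -0.60 and ALKBH8 over TRMT112 by 0.66, each without overlap and with the same exact p of 0.1. METTL3 over METTL14 differed by -0.05 (exact p = 0.9), WTAP over METTL3 by -0.10 (exact p = 0.6) and TRMT10C over HSD17B10 by -0.17 (exact p = 0.4), each with overlap. No pair could pass a threshold of 0.05 in this design, so the ratios are a description of these libraries and do not separate pairs that moved together from pairs that did not.

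**Figure D4:**
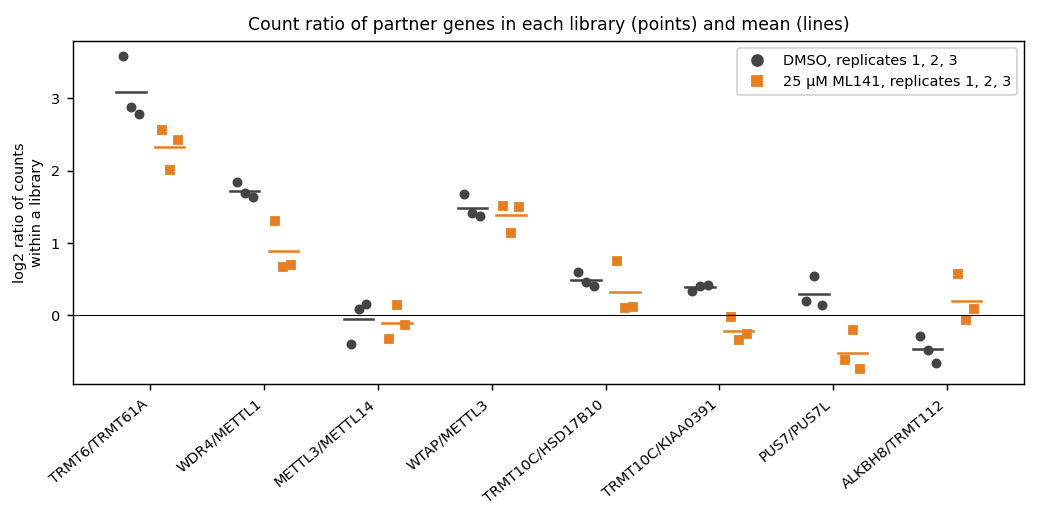
Log2 ratio of counts of 8 pairs (partners, or the paralogues PUS7 and PUS7L) within each library, with DMSO replicates as grey circles, ML141 replicates as orange squares and group means as lines. TRMT6/TRMT61A drops from a mean of 3.08 to 2.33, and METTL3/METTL14 lies around -0.05 and -0.10 in the 2 groups.

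Beside the members, 6 neighbouring lists of RNA modification genes were read. Their counts and medians are a description, and no set test was run. Of 18 tested partners, erasers and readers of m6A, 8 fell and none rose. The 44.4% that changed lies below the 54.4% of all genes tested that changed in either direction. As all of these fell, it lies above the 27.7% of all genes tested that fell. The median log2 fold change was -0.19. HNRNPA2B1, an RNA-binding protein described as an m6A reader, was at 2380, 2433 and 2363 CPM with DMSO and at 1119, 1328 and 1301 CPM with ML141, and fell by 0.94 (SE 0.0877, adjusted p = 4.41e-06). HNRNPC, which binds RNA opened by m6A, fell by 0.62 (adjusted p = 6.62e-05), and IGF2BP1, a reader that stabilises mRNA, by 0.55 (adjusted p = 0.000489). IGF2BP3, YTHDF2, IGF2BP2, RBM15 and ZC3H13 were the other 5, and over the alternatives the adjusted p reached 0.0892 for YTHDF2, 0.0826 for IGF2BP2, 0.319 for RBM15 and 0.724 for ZC3H13. WTAP, the adaptor of the writer, had a log2 fold change of -0.18 (adjusted p = 0.0786), and FTO, the other demethylase, of -0.15 (adjusted p = 0.186). With library totals 2 of the list rose and 5 fell, and without replicate 2 of both groups 4 fell. YTHDC1 is listed at 0 in all 6 libraries. Whether the gene is silent or its reads were not counted was not tested, so no absence is read from this 0.

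Of 13 other pseudouridine synthases and H/ACA proteins, 8 fell and 1 rose, with a median of -0.46. The H/ACA proteins serve the particles that make pseudouridine in ribosomal and small nuclear RNA. The 69.2% that changed lies above the 54.4% of all genes tested, and with 13 genes nothing is read from the difference. Of those that fell, RPUSD4 lost its call in 11 of 17 alternatives and TRUB2 in 12. Over the alternatives the adjusted p reached 0.492 for RPUSD4, 0.417 for TRUB2, 0.0818 for PUSL1 and 0.0584 for SHQ1. DKC1, the H/ACA synthase dyskerin, was at 290.4, 290.3 and 259 CPM with DMSO and at 174, 178 and 160.4 CPM with ML141, and fell by 0.71 (SE 0.0818, adjusted p = 2.04e-05). Its core partners NHP2 and GAR1 fell by 0.84 (adjusted p = 4.67e-05) and 0.58 (adjusted p = 0.000388). RPUSD3, a synthase of the mitochondrial ribosome, rose by 0.34 (adjusted p = 0.0371). That call was lost without DMSO replicate 1 or 2 or ML141 replicate 2 or 3, with an adjusted p of up to 0.224 over the alternatives. Without replicate 2 or replicate 3 of both groups, 5 of the list fell.

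Of 47 other tRNA modification genes, 16 fell and 5 rose, with a median of -0.20. The 44.7% that changed in either direction lies below the 54.4% of all genes tested, of which 26.7% rose and 27.7% fell. Beside WDR4, LCMT2, a wybutosine enzyme, fell by 0.80 (adjusted p = 8.7e-05), and QTRTD1, a subunit of the queuosine transglycosylase, by 0.51 (adjusted p = 0.000251). FTSJ1, a ribose methyltransferase of the anticodon loop, fell by 0.43 (adjusted p = 0.00116). DTWD2, TYW5 and DUS4L rose by 0.72, 0.70 and 0.54 (adjusted p = 0.000723, 0.0011 and 0.00232). They belong to the enzymes of acp3-uridine, wybutosine and dihydrouridine. With library totals 12 rose and 10 fell, so here too the balance turns with the scaling.

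Of 14 genes for ribosomal RNA modification, 9 fell and none rose, with a median of -0.38. Of the 9, 1 is TRMT112, which is also a member. The 64.3% that fell lies above the 27.7% of all genes tested that fell. NOP56 and FBL, of the ribose-methylating box C/D particles, fell by 0.78 (adjusted p = 7.21e-06) and 0.77 (adjusted p = 7.58e-06). NAT10, a cytidine acetyltransferase, fell by 0.58 (adjusted p = 6.4e-05), and NOP2, the NSUN family member that modifies 28S ribosomal RNA and whose symbol lies outside the rule, by 0.50 (adjusted p = 0.000408). NOP2 shares 70.9% of its exon bases with a gene on the same strand, AC006064.6, that has no entry in the table, so its count is uncertain. Of 9 genes for cap and small RNA end methylation, 2 rose and 1 fell, so 33.3% changed, against 54.4% of all genes tested. BCDIN3D, which methylates the end of histidine tRNA, rose by 0.92 (adjusted p = 0.000493), CMTR2, a cap methyltransferase, rose by 0.61 (adjusted p = 0.00278), and TGS1, which makes the trimethylguanosine cap, fell by 0.65 (adjusted p = 5.81e-05).

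Of 9 genes of S-adenosylmethionine supply, 4 rose and 3 fell. The 77.8% that changed lies above the 54.4% of all genes tested, and with 9 genes nothing is read from the difference. MAT2A, the synthase that makes the methyl donor in most tissues, was at 497, 553 and 525 CPM with DMSO and at 167, 273 and 218 CPM with ML141. It fell by 1.26 (SE 0.141, adjusted p = 1.68e-05). AHCY, which clears the product of methylation, S-adenosylhomocysteine, was at 295, 313 and 295 CPM with DMSO and at 135, 154 and 136 CPM with ML141, and fell by 1.09 (adjusted p = 8.97e-07). MTR, methionine synthase, fell by 0.36 (adjusted p = 0.00341), and its adjusted p reached 0.0696 over the alternatives. AHCYL1 and AHCYL2, relatives of AHCY, rose by 0.43 and 0.46 (adjusted p = 0.000524 and 0.00237).

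**Figure D5:**
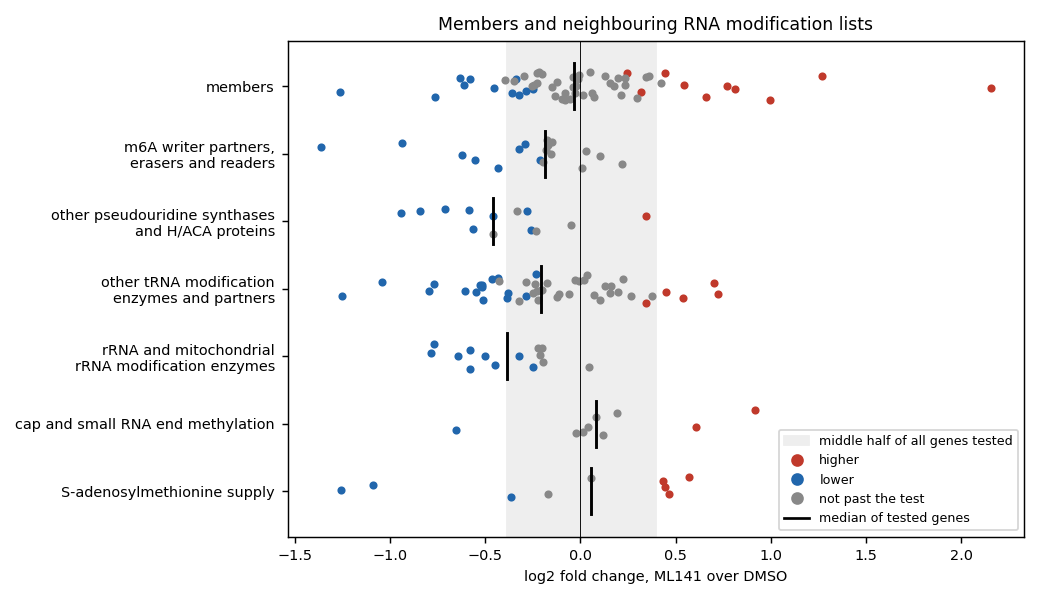
Log2 fold change of each tested gene (points, coloured by call) among the members and 6 neighbouring lists, with each median as a black bar and the middle range of all genes tested shaded. The medians run from -0.46 for the other pseudouridine synthases and H/ACA proteins to 0.08 for the cap list, with the members at -0.03.

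The sequence just upstream of the start was read for members that changed, to show what the promoters hold in common. Of the members, 48 had a promoter entry used here, from RefSeq on GRCh38.p14. Each was searched on both strands, over 250 upstream bases, for the E-box (CACGTG), the CCAAT box (CCAAT), the GC box (GGGCGG), the cyclic AMP element (TGACGTCA), the amino acid response element (TGATGNAAN) and the ETS motif (CCGGAAG). The last 100 upstream bases of 3 members that fell and 3 that rose follow, with matches in capitals.
PUS7 (chr7:105522272-105522371, minus strand): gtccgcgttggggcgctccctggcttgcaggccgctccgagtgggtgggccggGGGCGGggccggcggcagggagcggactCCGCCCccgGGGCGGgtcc
TRMT10C (chr3:101561768-101561867, plus strand): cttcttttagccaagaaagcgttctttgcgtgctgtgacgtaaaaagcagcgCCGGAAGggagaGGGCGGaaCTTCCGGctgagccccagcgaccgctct
TRMT6 (chr20:5950534-5950633, minus strand): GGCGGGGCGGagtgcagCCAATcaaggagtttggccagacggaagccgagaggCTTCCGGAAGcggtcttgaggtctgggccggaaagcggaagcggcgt
METTL15 (chr11:28108288-28108387, plus strand): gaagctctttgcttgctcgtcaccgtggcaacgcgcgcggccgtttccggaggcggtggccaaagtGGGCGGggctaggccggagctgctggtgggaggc
TRMT10B (chr9:37753705-37753804, plus strand): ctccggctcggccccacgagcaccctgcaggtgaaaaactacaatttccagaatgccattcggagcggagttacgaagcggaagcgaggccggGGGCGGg
ALKBH3 (chr11:43880731-43880830, plus strand): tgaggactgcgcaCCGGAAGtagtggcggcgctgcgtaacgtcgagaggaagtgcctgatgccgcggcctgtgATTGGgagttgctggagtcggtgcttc
All but ALKBH3 hold a GC box in this stretch, and TRMT10C, TRMT6 and ALKBH3 hold the ETS motif. In TRMT6 copies of the ETS motif on opposite strands overlap, and the capitals at its first base belong to a box that begins before the stretch shown.

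Over the 250 bases, 33.3% of the 48 members held the ETS motif, against 17.1% of 8644 tested genes with an entry and 8.82% of all 27305 promoters used. The GC box was in 54.2% of members against 67.9% of tested genes and 42.3% of all promoters, and the CCAAT box in 35.4% against 36.0% and 33.0%. The E-box was in 2.08% of members against 9.06% and 6.49%, and the cyclic AMP element in 4.17% against 2.88% and 1.77%. No member held the amino acid response element, which 1.39% of tested genes and 3.18% of all promoters held. Among the members with an entry, the ETS motif was in 2 of 8 that rose and 3 of 9 that fell, and the GC box in 3 of 8 and 7 of 9. The 8 include METTL15, which holds a GC box and passed the count filter only through the ML141 libraries. Nothing is read from these counts. These are matches of letters in the window, not measured binding.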

How the data were processed

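RNA of 6 libraries was measured, 3 per group, with groups and replicate numbers from the sample titles. Libraries were made with a kit that selects polyadenylated RNA and does not mark strand (TruSeq RNA v2, per the labels' protocols). The build was hg38, and reads went through featureCounts, Bowtie2, Trimmomatic, Picard, bcl2fastq 2.19 and DESeq2 in an order that is not stated, per the submitters' processing notes. Their settings and annotation were not given in the sources used here. The table deposited by the authors holds whole-number counts per gene symbol, which were used for all tests. It also holds scores, which are counts scaled by the authors and rounded, and were not used. The log2 fold change and p-value columns deposited by the authors are quoted only where named.

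Genes passing edgeR's filterByExpr (minimum count 10, minimum total 15) received TMM factors. The quasi-likelihood test of edgeR 4.0.16 (glmQLFit, glmQLFTest; R 4.3.3) was run 2-sided on the 6 libraries with a group term alone, and its p-values were adjusted over all genes tested by Benjamini-Hochberg. SE is the size of the log2 fold change over the square root of F. Genes named with values in every library are the up to 3 changed members of each role with the smallest p and a set of best-known enzymes; further genes were added after their values were seen. The members and lists were chosen with earlier results of these data known. The procedure was tested on simulated data for 11454 genes and recovered 65.7% of genes changed 1.5-fold and 98.5% of those changed 2-fold. In that simulation 67 genes were changed at each of these folds, and every gene had the same spread between replicates. In the data 54.4% of genes changed and the spread differed between genes, so these rates are not the power of the comparison reported. Alternatives were DESeq2 1.42.0 size factors and its Wald test, upper-quartile factors, library totals, no low-count filter and a stricter one, limma-voom (limma 3.58.1), a replicate block, and leaving out each library in turn; leaving out a replicate number in both groups was added after seeing the data. Positions and exon overlap come from GENCODE release 29, 1-based; 63 of 63 members matched, 4 by an older symbol. Of the 58 tested, 30 share exon bases with another gene. No pair of libraries in a group agreed within sampling noise.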

Additional observations from a re-analysis of the deposited data

How the results depend on the processing

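With 8284299 to 12308039 counts per library, the median SE of a tested member was 0.130 on the log2 scale, and SEs ran from 0.0746 to 0.413, so the size that could be called differed between genes. The smallest change called among members was 0.247 and the largest not called 0.426. Of 21 members called, 10 kept the call in every alternative that gave a value (17, or 16 for METTL15, which the stricter filter removes along with METTL20) and 11 lost it in at least 1; of 37 not called, 14 gained it in at least 1, and no member called changed direction. Against 10 members higher and 11 lower, upper-quartile factors gave 16 and 7 and library totals 19 and 6. Leaving out 1 library, or 1 replicate number in both groups, gave 5 to 13 higher and 5 to 13 lower. For the m6A list (0 higher, 8 lower), upper-quartile factors gave 2 higher, library totals gave 2 higher and 5 lower, and left-out libraries gave 4 to 11 lower. For the other pseudouridine list (1 higher, 8 lower), DESeq2's Wald test gave 0 higher, and left-out libraries gave 0 to 1 higher and 5 to 11 lower. For the other tRNA list (5 higher, 16 lower), upper-quartile factors gave 9 higher, library totals 12 higher and 10 lower, and the replicate block 8 higher. Library totals gave 1 higher in the ribosomal RNA list (0 in the main analysis) and 4 higher in the cap list (2). Left-out libraries gave 6 to 10 lower in the ribosomal RNA list, 11 to 18 lower in the other tRNA list, 2 to 3 higher in the cap list and 2 to 4 lower in the S-adenosylmethionine list. Over all genes tested, 54.4% changed, and 36.3% to 56.5% with libraries left out. Why a count moved was not tested.

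With the replicate number as a block, 11 members were higher and 14 lower, and 60.9% of all genes changed. The block changed the call of METTL1, METTL17, TRMT10A and TRMT11, which passed with it, and of no other member. Same-numbered libraries also share a tag in their descriptions (CV, Reh1 or Reh3), whose meaning is not stated. No source states that the numbers pair the libraries, and the main analysis did not pair them. The deviations of same-numbered libraries correlated across genes at 0.374, 0.0847 and 0.178 for replicates 1, 2 and 3. Among different-numbered libraries, DMSO replicate 3 and ML141 replicate 2 correlated at 0.291, and all other pairs at -0.366 to -0.0287. Whether a number marks 1 experiment therefore stays unsettled, and the block results are given beside the main ones.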
